A study of Mus musculus with 9 samples.

Results

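The comparison of siRNA 644 with its control set 3 libraries against 3, which are 6 of the 9 libraries in the series, and was taken across every gene of the deposited table. BV2 is an immortalised mouse microglial cell line. All 6 cultures were lipofected with RNAiMAX and an RNA duplex for 24 h, then kept in fresh medium for a further 24 h, so RNA was taken at 48 h. The control group carried the label NC, and the other group received the siRNA named 644, which is directed against Nus1. Messenger RNA libraries were prepared from 2 µg of total RNA. Separate transfections are not stated in the labels, so the p-values below cover the spread among these 6 libraries and nothing wider.

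The product of Nus1, the Nogo-B receptor, works with DHDDS as a cis-prenyltransferase, and their product gives dolichol, the lipid on which sugars are assembled for protein N-glycosylation in the endoplasmic reticulum (ER). When proteins fold poorly in the ER, the sensors ATF6, IRE1 and PERK start the unfolded protein response, which raises ER chaperones and, through the transcription factors ATF4 and CHOP (encoded by Ddit3), a further set of stress genes. Microglia are the resident macrophages of the brain, and BV2 cells divide in culture. No culture compared here was left untransfected, so the level of interferon genes in BV2 cells without an RNA duplex was not measured.

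Depth was even, at 19492208 to 20224686 estimated counts a library, and 16398 genes were listed. Of these genes, 11626 had enough counts to be tested, and the other 4772 were not. Levels are given as CPM (counts scaled to library size, with TMM factors of 0.953 to 1.028) or as the FPKM that the authors computed, which allows for gene length. Nus1 (NCBI gene 52014, chromosome 10, 52417547 to 52440192 in the table's coordinates) was at 52.0, 50.7 and 54.0 CPM in control and at 3.99, 4.21 and 3.51 CPM with siRNA 644. The groups did not overlap, and the log2 fold change was -3.74 (SE 0.0998, edgeR adjusted p = 2.78e-07). Of 18 microglial and macrophage markers, 17 were tested, 5 were called higher and 5 lower (29.4% each). Over all genes tested 24.1% were higher and 23.6% lower, so these shares were near the background. The fractalkine receptor gene Cx3cr1, which marks microglia, had the largest change of the list, with 559, 463 and 514 counts in control and 68, 86 and 77 with siRNA 644 (-2.65, SE 0.115). Trem2, a lipid-sensing receptor, was called higher by 0.85, while Cd14, the co-receptor for endotoxin, was at -1.35 and the complement gene C1qa at -1.34. The transcription factor gene Sall1, with 0 to 3 counts in a library, was not tested. Cd68 lay near 1390 FPKM in control, and the summed level of the list was 4310 to 4760 FPKM in control and 5200 to 5360 FPKM with siRNA 644. Of 7 neuronal markers in the table, Map2 and Tubb3 were tested and called higher (edgeR adjusted p = 0.0326 and 0.0320). The Map2 call was lost without any 1 library other than siRNA 644 replicate 2 (adjusted p = 0.0582 to 0.106), and the Tubb3 call without any other than control replicate 3 (0.0677 to 0.104). With DESeq2 neither was called (adjusted p = 0.164 and 0.153). The list had sums of 0.18 to 0.33 FPKM in control and 0.45 to 0.58 FPKM with siRNA 644. Stmn2 had 0 counts in all 6 libraries, and the part of this list in the other results was not tested. No marker of astrocytes, fibroblasts, epithelial cells or lymphocytes had enough counts to be tested.

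The promoters of 6 genes hold sequence elements that are known from gene groups described below. Avil is not in the list of ATF4 and CHOP targets but in that of actin-binding genes. Its element stood in 3.97% of all promoters, and the part of this match in the rise of Avil was not tested. Each run holds the 250 bases before the RefSeq start in GRCm38.p6, written in the gene's own direction, and the capitals mark the match found. Hspa5 and Creld2 hold the ER stress element, in which CCAAT and CCACG are set apart by 9 bases. Herpud1 and Avil hold the composite element of C/EBP and ATF factors, TGATGNAA. Rsad2 and Gbp3 hold the interferon-stimulated response element, in which GAAA returns after a gap of 2 bases. In Creld2, Herpud1, Rsad2 and Gbp3 the match lies on the opposite strand.
Hspa5, chr2:34771840-34772089, plus strand: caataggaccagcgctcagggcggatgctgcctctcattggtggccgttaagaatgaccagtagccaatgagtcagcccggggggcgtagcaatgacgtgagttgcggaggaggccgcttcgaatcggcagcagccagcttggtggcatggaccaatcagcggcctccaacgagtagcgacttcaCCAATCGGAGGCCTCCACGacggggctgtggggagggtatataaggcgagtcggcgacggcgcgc
Creld2, chr15:88819396-88819645, plus strand: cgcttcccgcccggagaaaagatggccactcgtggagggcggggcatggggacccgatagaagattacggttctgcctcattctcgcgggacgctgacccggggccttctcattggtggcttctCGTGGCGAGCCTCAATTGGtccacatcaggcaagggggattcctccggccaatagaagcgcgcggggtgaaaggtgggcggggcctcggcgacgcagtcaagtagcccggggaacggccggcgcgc
Herpud1, chr8:94386179-94386428, plus strand: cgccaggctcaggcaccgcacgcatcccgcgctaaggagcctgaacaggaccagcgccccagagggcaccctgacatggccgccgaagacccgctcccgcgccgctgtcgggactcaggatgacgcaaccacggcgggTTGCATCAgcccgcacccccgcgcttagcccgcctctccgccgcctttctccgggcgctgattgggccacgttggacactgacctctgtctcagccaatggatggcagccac
Avil, chr10:127000459-127000708, plus strand: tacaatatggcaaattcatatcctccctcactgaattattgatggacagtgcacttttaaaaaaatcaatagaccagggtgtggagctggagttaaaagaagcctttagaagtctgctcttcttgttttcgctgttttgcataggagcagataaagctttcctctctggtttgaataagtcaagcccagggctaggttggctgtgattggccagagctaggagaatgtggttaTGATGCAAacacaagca
Rsad2, chr12:26456453-26456702, minus strand: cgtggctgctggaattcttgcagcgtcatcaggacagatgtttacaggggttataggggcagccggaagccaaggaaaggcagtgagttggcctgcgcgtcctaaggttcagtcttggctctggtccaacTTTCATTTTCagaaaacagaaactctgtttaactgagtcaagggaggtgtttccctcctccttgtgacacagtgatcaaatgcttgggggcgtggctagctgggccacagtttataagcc
Gbp3, chr3:142559794-142560043, plus strand: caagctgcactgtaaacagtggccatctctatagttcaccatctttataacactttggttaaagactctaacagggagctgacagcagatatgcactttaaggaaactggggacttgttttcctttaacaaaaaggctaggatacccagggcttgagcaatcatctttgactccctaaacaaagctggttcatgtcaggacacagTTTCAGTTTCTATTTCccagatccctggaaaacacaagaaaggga

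Across all genes the response was wide and mostly small. Of 11626 genes tested, 5543 (47.7%) were called at an adjusted p under 0.05, 2803 (24.1%) higher and 2740 (23.6%) lower with siRNA 644. Among the called genes, 2610 (47.1%) moved by under 0.5 on the log2 scale. At least 2-fold changes were called for 481 genes upward (4.14%) and 320 downward (2.75%). For 6500 genes (55.9%) the CPM of all 3 libraries of one group lay above those of the other, and 200 called genes overlapped between the groups. The authors' deposited table gave a q-value under 0.05 to 2556 genes higher and 2648 lower with siRNA 644. Of the calls made here, 5076 were also called there, which is 91.6% of the edgeR calls and 97.5% of those in the authors' deposited table, and 0 of them had the opposite sign. With all 9 libraries in 1 fit the counts were 1951 higher and 1759 lower, and with library sizes of these 6 alone they were 2519 and 2986.

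Upward and downward calls were nearly equal in number, but the largest changes went up. At least 8-fold changes were called for 48 genes higher and 6 lower, at least 16-fold changes for 30 and 1, and at least 32-fold changes for 17 and 0. The genes that rose most were nearly silent in control cells. Their median control level was 1.01 FPKM for rises of at least 2-fold, 0.255 FPKM for at least 4-fold and 0.0583 FPKM for at least 8-fold, against 11.4 FPKM over all genes tested. Of the 48 genes that rose at least 8-fold, 40 (83.3%) had a control mean under 1 FPKM, as had 12% of the genes tested. The count filter bears on this. Of these 48 genes, 32 reached its level of 0.503 CPM in no control library and so entered the test through the siRNA 644 libraries alone, and of the 6 genes that fell at least 8-fold, 4 entered through the control libraries alone. A rise from near 0 has no ceiling in fold, so these counts describe sizes and were not tested against each other.

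**Figure D1:**
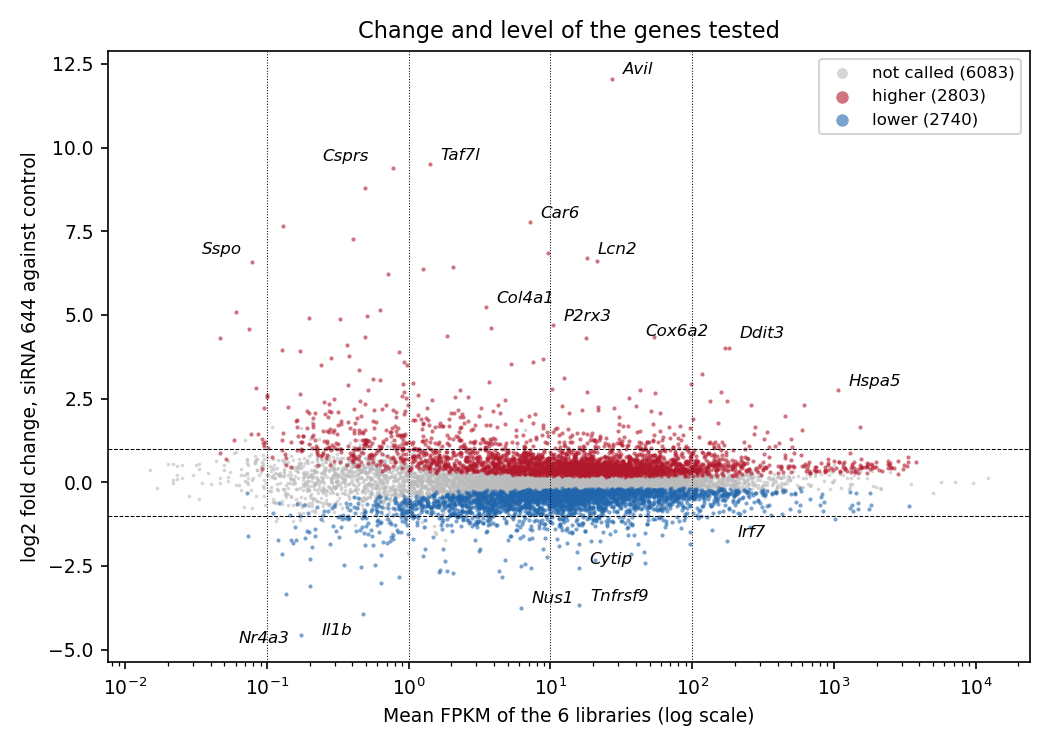
Each point is 1 of the 11626 genes tested, placed by its mean FPKM over the 6 libraries (x, log scale) and its log2 fold change with siRNA 644 against control (y). Red and blue points were called higher (2803) and lower (2740) at an edgeR adjusted p under 0.05, dashed lines mark a 2-fold change and dotted lines the class limits, and the points beyond 5 all lie on the upper side.

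The classes of expression differed in what was called. Genes were put into 5 classes by their mean FPKM over the 6 libraries, a value that weighs both groups alike. Under 0.1 FPKM, 99 of 4210 genes were tested, 17 were called higher and 2 lower. From 0.1 to 1 FPKM, 1268 of 1927 were tested, with 263 higher and 162 lower. From 1 to 10 FPKM the order turned, with 815 of 4087 higher (19.9%) and 1028 lower (25.2%). Between 10 and 100 FPKM both directions were near the share over all genes, at 1385 (26.4%) and 1336 (25.5%) of 5237. At 100 FPKM or more, 323 of 935 genes were higher (34.5%) and 212 lower (22.7%). For changes of at least 2-fold the shares were 13.2% higher and 6.15% lower from 0.1 to 1 FPKM, 3.47% and 3.01% from 1 to 10, 2.33% and 2.12% from 10 to 100, and 3.85% (36 genes) and 0.749% (7 genes) at 100 or more. In the 2 lowest classes many risers had entered the test through the siRNA 644 libraries alone, 10 of the 14 called at least 2-fold higher under 0.1 FPKM and 77 of the 167 from 0.1 to 1. Classes made from the control mean alone gave 28.3% higher and 27.5% lower at 100 FPKM or more, and 1.97% and 1.64% for changes of at least 2-fold, so the excess of risers in the top class was not seen there. The precision changed with level too. The median SE of a log2 fold change was 0.349 under 0.1 FPKM, 0.267 from 0.1 to 1, 0.124 from 1 to 10, 0.0854 from 10 to 100 and 0.0917 at 100 or more, and the smallest change called was 0.33, 0.35, 0.20, 0.16 and 0.17. Small changes in rare transcripts were therefore not detectable at this depth.

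**Figure D2:**
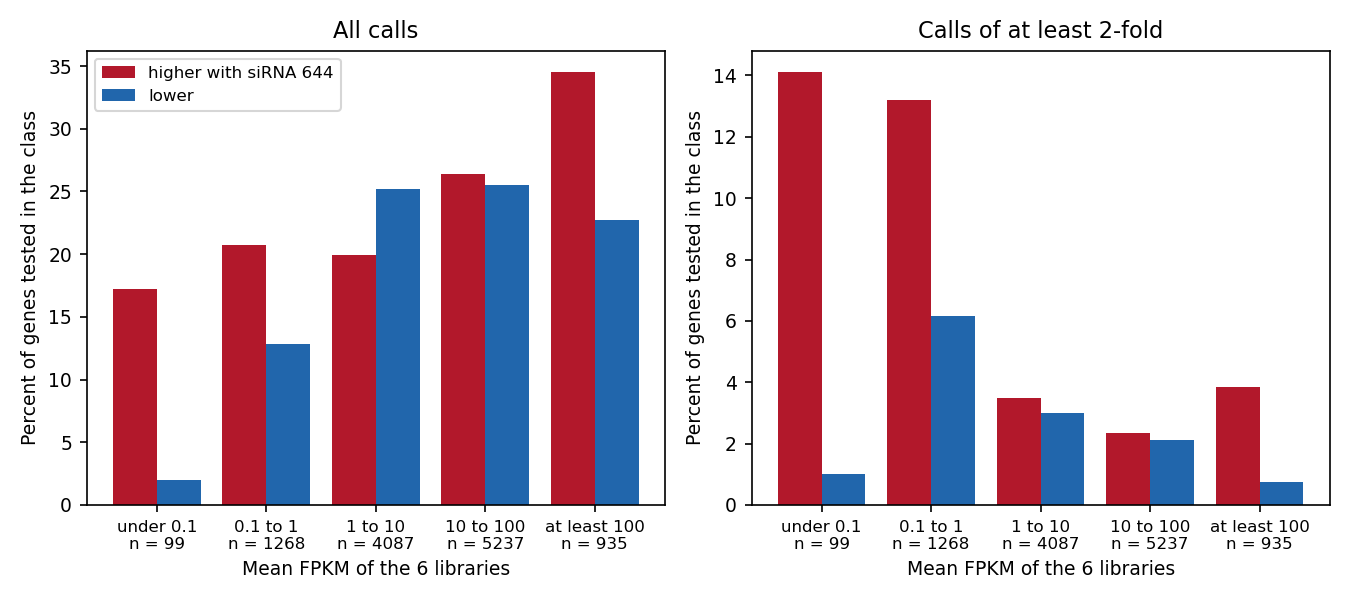
Bars give the percent of the genes tested in each class of mean FPKM that were called higher (red) or lower (blue) with siRNA 644, for all calls on the left and for calls of at least 2-fold on the right, with the number of genes tested under each class. At 100 FPKM or more, 34.5% were higher and 22.7% lower, and for changes of at least 2-fold 3.85% against 0.749%.

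The direction of change also moved with GC content and transcript length, which bears on every class and list. The median log2 fold change rose from -0.20 in the lowest of 5 equal bins of GC content to 0.18 in the highest, and fell from 0.13 in the shortest of 5 bins of transcripts to -0.12 in the longest. The deviation of single libraries from the mean over the 6 libraries tracked GC content as well. Its Spearman correlation with GC content across genes was -0.35, 0.02 and -0.36 in control replicates 1, 2 and 3. In the siRNA 644 replicates it was 0.42, -0.12 and 0.33. These values include the difference between the groups, and the replicates of each group also differed among themselves. With offsets for GC content and length, 2956 genes were called higher and 3513 lower, and at least 2-fold changes were 418 and 313. The part of GC content and length in any 1 result was not tested beyond these offsets.

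Single genes give the clearest picture of the largest rises. Genes named by class were picked among calls whose groups did not overlap, so their lack of overlap was set by that choice. Of all genes tested, 55.9% did not overlap. Avil, which encodes advillin, an actin-binding protein of the gelsolin and villin family known from sensory neurons, had 1, 0 and 1 counts in the control libraries and 3268, 3172 and 3206 with siRNA 644. It went from 0.0133 to 54.7 FPKM, and the ratio of its summed CPM was 5100 (exact 95% interval 1410 to 42200, counting error only). In the table's coordinates Avil spans 127000065 to 127020994 on chromosome 10, and the RefSeq promoter printed above lies inside that span.

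Several tissue-restricted genes appeared from 0 counts. Taf7l, a germ-cell paralog of a subunit of the general transcription factor TFIID, had 0 counts in each control library and 99, 85 and 80 with siRNA 644, which is at least 93.1-fold higher against 3 counts over the control group. Mdga1, a membrane-anchored glycoprotein of neuronal synapses, had 0 counts in control and 27, 22 and 24 with siRNA 644, at least 25.8-fold higher. The growth factor gene Fgf6 had 0 in control and 24, 14 and 18 with siRNA 644, at least 19.8-fold higher. The choice of these 3 genes required groups that did not overlap. With 0 control counts, they entered the test through the siRNA 644 libraries alone. Csprs also had 0 counts in control and 91, 71 and 83 with siRNA 644, at least 86.4-fold higher. It lies on an unplaced scaffold and belongs to a sequence present in many copies, so the placing of its reads is uncertain. Sdr39u1, a short-chain dehydrogenase gene, had 1 control count over 3 libraries and 38, 17 and 42 counts with siRNA 644, a ratio of 103 (exact 95% interval 18 to 4100). Its span overlaps that of Khnyn on the other strand. The strand setting of the counts is not known, so the origin of its reads is uncertain too.

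The lowest class held larger genes with few reads. Sspo, which encodes the giant secreted glycoprotein SCO-spondin, had 0, 0 and 1 control counts and 50, 38 and 37 with siRNA 644 (ratio 132, exact 95% interval 23.3 to 5270). Kcnma1, the pore subunit of the BK potassium channel, had 2 control counts in all and 22, 13 and 18 with siRNA 644 (ratio 28.0, interval 7.39 to 238). For Flrt1, a membrane protein of cell guidance, the counts were 2 over the control libraries and 13, 18 and 13 with siRNA 644 (ratio 23.3, interval 6.07 to 198). The groups of these genes did not overlap, as their choice required. The intervals show how little the size of the fold is held by so few control reads. Flrt1 shares part of its span with Macrod1 on the other strand. Without a known strand setting the origin of the Flrt1 reads is uncertain. The zinc finger gene Zfp651 had 1, 3 and 2 control counts and 15, 10 and 17 with siRNA 644, a ratio of 7.41 (interval 3.13 to 21.3). Fhod3, an actin-nucleating formin of striated muscle, was the only gene with an established symbol called lower in this class, with 15, 12 and 12 counts in control and 4, 6 and 2 with siRNA 644. Its log2 fold change was -1.59 (SE 0.384, adjusted p = 0.00964) and it missed the threshold with limma on log2(FPKM + 1) (adjusted p = 0.0866).

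In the class from 1 to 10 FPKM the risers also started near 0. Car6, a secreted carbonic anhydrase of saliva, had 1, 2 and 2 control counts and 397, 342 and 368 with siRNA 644 (ratio 234, exact 95% interval 100 to 723). Gprc5d, an orphan receptor of hair follicles and plasma cells, had 2 control counts in all and 66, 52 and 69 with siRNA 644 (ratio 99.0, interval 27.0 to 823). Akr1b7, an aldo-keto reductase known from the adrenal gland and the vas deferens, was at 0.388, 0.149 and 0.0487 CPM in control and 25.7, 23.0 and 21.5 CPM with siRNA 644. Its log2 fold change was 6.86 (SE 0.283, adjusted p = 1.26e-06), and 7.80 without control replicate 1, which held 8 control reads where the others held 3 and 1. Its relatives were not called higher. Akr1b3 was at -0.40 (SE 0.0776, adjusted p = 0.00339), and Akr1b8 at -0.17 and Akr1b10 at -0.20 were not called (adjusted p = 0.276 and 0.159). These relatives were chosen after their values were seen.

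Lcn2, Bglap2 and P2rx3 rose from a control mean under 1 FPKM into the class of 10 to 100 FPKM. Lcn2, the siderophore-binding protein lipocalin 2, was at 0.486, 0.149 and 0.195 CPM in control and at 30.5, 27.7 and 30.3 CPM with siRNA 644. Its log2 fold change was 6.70 (SE 0.223, adjusted p = 4.53e-07), and 7.37 without control replicate 1. Bglap2, one of 3 neighbouring osteocalcin genes of bone, was at 0.146, 0.397 and 0 CPM in control and 21.5, 16.1 and 16.8 CPM with siRNA 644 (log2 fold change 6.61, SE 0.386, adjusted p = 7.86e-06, and 7.84 without control replicate 2). Reads may be shared with its near-identical copies Bglap, which had 2, 0 and 0 control counts and 0, 4 and 3 with siRNA 644, and Bglap3, called higher by 2.32. P2rx3, an ATP-gated channel of sensory neurons, was at 2.52, 3.13 and 3.56 CPM in control and 83.0, 76.2 and 79.2 CPM with siRNA 644. The rise of P2rx3 was 4.69 (SE 0.120, adjusted p = 2.78e-07), and the groups lay far apart. The microglial channels of the same family moved less, with P2rx4 at 0.43 (SE 0.0810) and P2rx7 at 0.41 (SE 0.0834). P2rx1 was at 0.53, a call that was lost without control replicate 1, control replicate 3 or siRNA 644 replicate 1 (edgeR adjusted p = 0.0846, 0.0663 and 0.0714). The P2rx1 call was also lost with all 9 libraries (0.0722) and with a replicate block (0.0791).

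**Figure D3:**
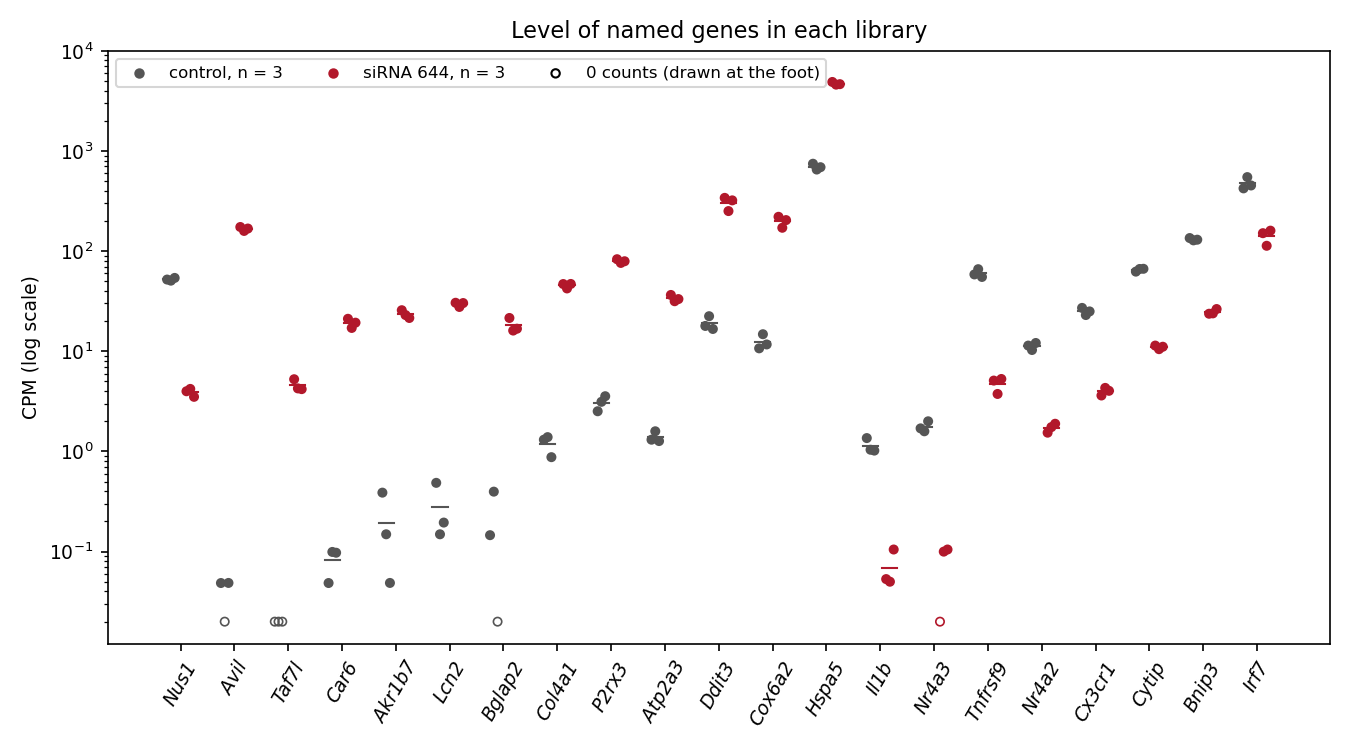
CPM of 21 named genes in each library on a log scale, grey for the 3 control libraries and red for the 3 libraries with siRNA 644, with a bar at the group mean where no library had 0 counts and open circles at the foot for libraries with 0 counts. The groups do not overlap for any gene shown, and for genes named by class this was required. Control values of Avil, Taf7l, Car6, Akr1b7, Lcn2 and Bglap2 all lie under 1 CPM.

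At a mean of 100 FPKM or more, the 4 largest rises were those of Ddit3, Cox6a2, Trib3 and Hspa5. Ddit3, the gene of CHOP, was at 17.9, 22.4 and 16.7 CPM in control and 340, 251 and 321 CPM with siRNA 644 (log2 fold change 4.0, SE 0.153, adjusted p = 9.01e-07). Cox6a2, which encodes the heart and muscle isoform of a cytochrome c oxidase subunit, was at 10.7, 14.8 and 11.7 CPM and rose to 220, 171 and 204 CPM (4.0, SE 0.144, adjusted p = 6.31e-07). In FPKM, Cox6a2 went from 20.7 ± 3.13 to 319 ± 28.8 (SD, n = 3 each), while the widely expressed isoform Cox6a1 went from 519 ± 50.7 to 729 ± 64.9. Cox6a1 was called higher by 0.54 (SE 0.113, adjusted p = 0.00490), but not in the fit of all 9 libraries (adjusted p = 0.0683). Trib3, a pseudokinase induced by ATF4 and CHOP, was at 42.0, 52.5 and 41.6 CPM and rose to 458, 400 and 431 CPM (3.24, SE 0.108). The ER chaperone Hspa5 (BiP) was at 745, 652 and 688 CPM and rose to 4880, 4590 and 4640 CPM (2.76, SE 0.0870). For Ddit3, Cox6a2, Trib3 and Hspa5 the lowest siRNA 644 library lay far above the highest control library.

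The pumps and collagens show how unevenly close relatives moved. The SERCA pumps return calcium to the ER. Atp2a3, the form known from blood and epithelial cells, had 27, 32 and 26 control counts and 687, 632 and 634 with siRNA 644, a log2 fold change of 4.60 (SE 0.129, adjusted p = 2.83e-07). Atp2a1, the form of fast skeletal muscle, had 3, 1 and 2 control counts and 15, 10 and 10 with siRNA 644, which did not overlap (ratio 6.17, exact 95% interval 2.57 to 18). The broadly expressed Atp2a2 was called higher by 0.66 (SE 0.159, adjusted p = 0.00968) but not with all 9 libraries (adjusted p = 0.103), and in FPKM it stayed the more abundant, at 57.5 in control and 88.1 with siRNA 644, against 0.313 and 7.34 for Atp2a3. Col4a1 and Col4a2 encode the chains of collagen IV of basement membranes and are known to start from a shared promoter in opposite directions. In the table's coordinates, however, their spans overlap and are listed on the same strand, so reads in the overlap cannot be told apart. Col4a1 was at 1.31, 1.39 and 0.877 CPM in control and 46.9, 42.4 and 47.0 CPM with siRNA 644 (5.24, SE 0.148, adjusted p = 2.83e-07). Col4a2 was at 1.07, 1.19 and 1.41 CPM in control and 1.12, 1.25 and 0.995 CPM with siRNA 644 (-0.12, SE 0.215, adjusted p = 0.683). The libraries of Col4a2 overlapped, while those of Col4a1 did not. Of the GADD45 stress proteins, Gadd45a rose by 3.11 (SE 0.116), from 2.82 to 3.46 CPM in control to 24.7 to 27.9 CPM, while Gadd45b was at -0.27 (SE 0.135, adjusted p = 0.129) and Gadd45g at 0.12 (SE 0.214, adjusted p = 0.669). The relatives in this paragraph were chosen after their values were seen.

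At least 8-fold falls were called for Nr4a3, Il1b, Nus1, Tnfrsf9, Xirp1 and Rilpl1, and the other members of the Nr4a family fell as well. Nr4a1, Nr4a2 and Nr4a3 encode orphan nuclear receptors that many stimuli induce early. Nr4a3 had 35, 32 and 41 control counts and 0, 2 and 2 with siRNA 644, a ratio of 0.0392 (exact 95% interval 0.0105 to 0.103). Nr4a2 was at 11.4, 10.3 and 12.1 CPM in control and 1.54, 1.75 and 1.89 CPM with siRNA 644 (-2.70, SE 0.138, adjusted p = 4.10e-06). The third member, Nr4a1, was at 36.8, 37.4 and 39.1 CPM and at 6.43, 8.36 and 9.11 CPM (-2.24, SE 0.126, adjusted p = 6.14e-06). All 3 were lower in every siRNA 644 library than in any control library.

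Il1b, the cytokine interleukin 1 beta, had 28, 21 and 21 control counts and 1, 1 and 2 with siRNA 644, a ratio of 0.0605 (interval 0.0160 to 0.162). Tnfrsf9, the co-stimulatory receptor 4-1BB, was at 58.5, 66.0 and 55.2 CPM in control and 5.10, 3.75 and 5.29 CPM with siRNA 644 (-3.67, SE 0.139, adjusted p = 8.72e-07). Cytip, a regulator of leukocyte adhesion, went from 65.1 ± 2.36 to 11.0 ± 0.470 CPM (SD, n = 3 each; -2.57, SE 0.0796, adjusted p = 3.62e-07). These groups did not overlap, as the choice of these genes required. Among low genes outside the immune system, Xirp1, an actin-binding protein of muscle, had 36, 25 and 28 control counts and 1, 3 and 4 with siRNA 644 (ratio 0.0951, interval 0.0398 to 0.196), and Rilpl1, a protein of the primary cilium, had 18, 12 and 18 and then 2, 2 and 1 (ratio 0.110, interval 0.0342 to 0.276).

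Falls in the middle classes included Hes7, a repressor of the Notch pathway, at -2.83 (SE 0.204), and Apold1, a gene of vascular cells induced early after stimulation, at -2.68 (SE 0.160). Bnip3, a mitochondrial protein of mitophagy and a target of the hypoxia factor HIF-1, was at 135, 128 and 130 CPM in control and 23.7, 23.9 and 26.4 CPM with siRNA 644 (-2.41, SE 0.0740, adjusted p = 3.62e-07). Selenbp1, which binds selenium and oxidises methanethiol, fell by 2.33 (SE 0.133). At 100 FPKM or more only 7 genes fell at least 2-fold. The interferon regulator Irf7 was at 423, 548 and 452 CPM in control and 151, 113 and 160 CPM with siRNA 644 (-1.75, SE 0.146, adjusted p = 4.61e-05). The chemokine gene Ccl4 was at -1.42 (SE 0.0908), the antiviral membrane protein gene Ifitm3 at -1.33 (SE 0.106) and Cdca3, which takes part in mitotic entry, at -1.08 (SE 0.0782). None of these overlapped between the groups, as their choice required.

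Seen as shares of all counts, the picture was ruled by abundant genes with modest folds. All values here are percent of all counts. Summed over all genes, 12.5% of the counts changed place between the groups. Called genes gained 11.2% of all counts where their share rose and lost 9.56% where it fell. The 801 genes called at least 2-fold gained 3.05% of all counts and lost 1.22%, and the 54 called at least 8-fold gained 0.164% and lost 0.011%. Of the 100 genes with the largest share, 84 were common to both groups.

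The 8 largest gains in share summed to 1.45% of a library, and 5 of them were ER chaperones or folding enzymes. Hspa5 rose from 0.0766%, 0.0649% and 0.0706% of the control libraries to 0.465%, 0.470% and 0.453% with siRNA 644. Calr, the lectin chaperone calreticulin, rose from 0.143% to 0.436%, and Hsp90b1, the ER form of HSP90, from 0.0834% to 0.239%. Hyou1, a large chaperone of the HSP70 family, and the disulfide isomerase gene Pdia3 gained 0.105% and 0.104%. The lysosomal protease gene Ctsd gained 0.137% with a log2 fold change of only 0.88 (SE 0.0724), and Sqstm1, the autophagy receptor p62, gained 0.104%. Rpsa, a protein of the small ribosomal subunit, gained 0.163% with a log2 fold change of 0.57 (SE 0.139, adjusted p = 0.0101). The Rpsa call was lost without control replicate 1 (edgeR adjusted p = 0.0511), with all 9 libraries (0.0706) and with a replicate block (0.0552).

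The 8 largest losses summed to 1.47% of a library and included several enzymes of glycolysis. Spp1, the secreted phosphoprotein osteopontin, held 0.593%, 0.589% and 0.585% of the control libraries and 0.318%, 0.388% and 0.342% with siRNA 644 (-0.71, SE 0.0834, adjusted p = 0.000273). Pkm and Ldha, which make pyruvate and lactate, were at -0.67 (SE 0.101) and -0.78 (SE 0.102). Eno1, another glycolytic enzyme gene, held 0.941%, 1.07% and 0.918% in control and 0.809%, 0.662% and 0.795% with siRNA 644, yet it was not called (-0.32, SE 0.130, adjusted p = 0.0696). The tubulin gene Tuba1b was at -0.79 (SE 0.0789) and Ly6e, an interferon-inducible surface protein gene, at -0.79 (SE 0.126). Of the predicted genes in the group, Gm46894 was at -1.10 (SE 0.0913), and Gm46911 was at -0.61 (SE 0.175, adjusted p = 0.0209) with overlapping libraries. The Gm46911 call was lost without control replicate 1 or 3 or siRNA 644 replicate 1 or 3 (edgeR adjusted p = 0.0576 to 0.0862). It was also lost with all 9 libraries (0.143) and with a replicate block (0.079). Near-identical copies could share reads with either predicted gene.

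**Figure D4:**
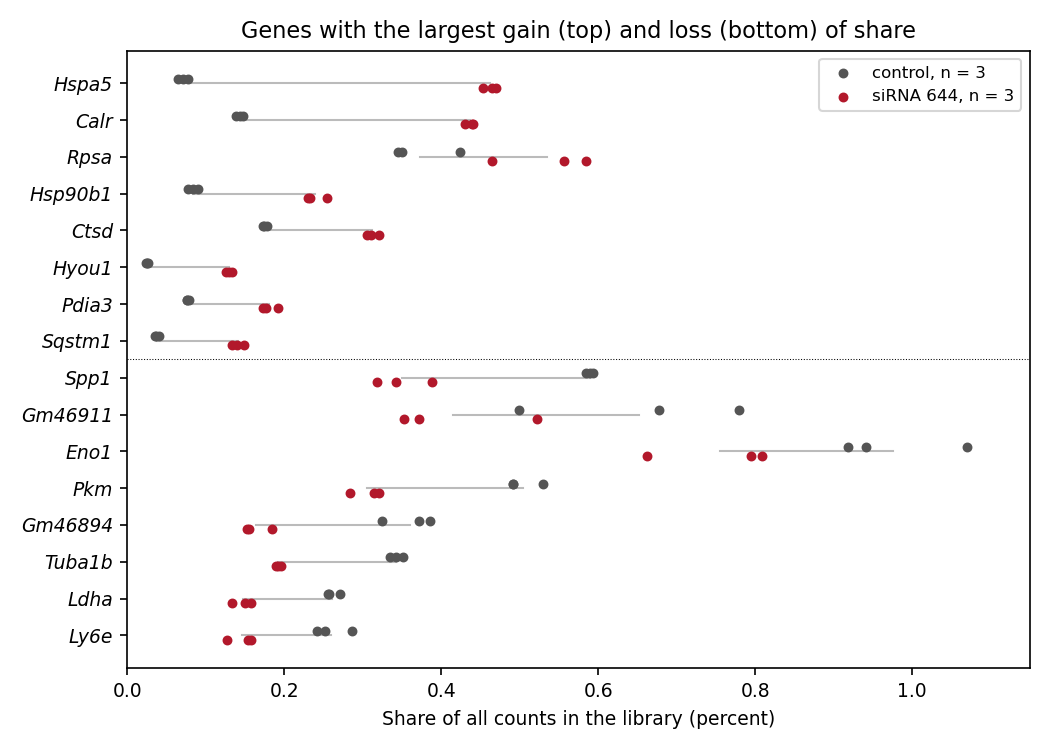
Share of all counts, in percent of the library, of the 8 genes with the largest gain (above the dotted line) and the 8 with the largest loss (below it), with grey points for the 3 control libraries, red points for the 3 with siRNA 644 and a line between the group means. Hspa5 moved from about 0.0707% to 0.463%, and only Gm46911 has overlapping groups.

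Most genes of the unfolded protein response core and most targets of ATF4 and CHOP rose. Of 26 tested genes of the unfolded protein response core, 23 were called higher and 0 lower, with a median log2 fold change of 1.59 against -0.01 over all genes tested and 24.1% of all genes called higher. Herpud1, which supports ER-associated degradation, rose by 2.93 (SE 0.0773) and Creld2, a secreted ER stress protein, by 2.71 (SE 0.0829). Of 29 targets of ATF4 and CHOP, 26 were higher and 2 lower (median 0.84). Ppp1r15a, which restores translation by directing a phosphatase to eIF2, rose by 2.77 (SE 0.125), and Wars, the tryptophanyl-tRNA synthetase gene, rose by 1.78 (SE 0.0756). The 18 tested selenoprotein genes were split, with 7 higher (38.9%) and 6 lower (33.3%) and a median of -0.05. The ER members Selenos (1.52, SE 0.0765) and Selenok (0.94, SE 0.0755) led those that rose. With all 9 libraries 3 selenoprotein genes were called higher, and 4 without control replicate 1, control replicate 3 or siRNA 644 replicate 3. The 2 targets of ATF4 and CHOP called lower were 1 without any of control replicates 1 and 3 and siRNA 644 replicates 1 and 3.

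More transcription factors of the bZIP class were called higher than lower. Of 41 tested, 18 were higher (43.9%) and 7 lower (17.1%), against 24.1% and 23.6% of all genes. Their median was 0.21, and 3 were lower with all 9 libraries and 4 without control replicate 1 or 3. With offsets for GC content and length the median was 0.04. Beside Ddit3, the ATF4 target Atf5 was at 24.2, 27.1 and 25.8 CPM in control and 182, 137 and 166 CPM with siRNA 644 (2.66, SE 0.114, adjusted p = 1.62e-06). Fosl1, a subunit of AP-1, rose by 1.71 (SE 0.117), and Bach2, a repressor of lymphocyte differentiation, by 1.57 (SE 0.169). Immediate early genes went the other way, with 4 of 25 higher and 12 lower (median -0.37, and 23.6% of all genes lower), led by the Nr4a genes. Of 17 feedback inhibitors of MAP kinases, 3 were higher (17.6%) and 7 lower (41.2%), with a median of 0.07. The phosphatase gene Dusp14 was at -1.70 (SE 0.103), while Dusp1 rose by 0.91 (SE 0.146). Spry1, at -0.92, was not called with all 9 libraries (adjusted p = 0.0594).

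The cytosolic chaperones did not follow those of the ER. Of 24 tested heat shock and metallothionein genes, 3 were higher (12.5%) and 11 lower (45.8%), with a median of -0.17. Over all genes 24.1% were higher and 23.6% lower. With all 9 libraries 6 of the list were lower. Without siRNA 644 replicate 2, 5 were higher. Most of the list is cytosolic, but it also holds the mitochondrial chaperonin genes Hspd1, which was called lower, and Hspe1. The Hspd1 call was lost with all 9 libraries and with a replicate block (edgeR adjusted p = 0.111 and 0.0723). It was also lost without control replicate 1 or siRNA 644 replicate 3 (0.0587 and 0.0615). Hsp90aa1, the inducible cytosolic HSP90, was at 1630, 1470 and 1650 CPM in control and 721, 924 and 834 CPM with siRNA 644 (-0.94, SE 0.102, adjusted p = 0.000184). The other cytosolic form, Hsp90ab1, was at -0.28 (SE 0.0877, edgeR adjusted p = 0.0283). This call was lost without control replicate 1, control replicate 2 or siRNA 644 replicate 3 (adjusted p = 0.110, 0.0627 and 0.0775). It was also lost with all 9 libraries (0.0802) and with a replicate block (0.113). The ER counterpart Hsp90b1 rose by 1.57 (SE 0.0765). Hsph1, a nucleotide exchange factor of HSP70, was at -0.78 (SE 0.106).

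In the lists of secreted factors and surface proteins more members were higher than lower. Over all genes 24.1% were higher and 23.6% lower. Of 22 tested growth factor genes, 12 were higher (54.5%) and 5 lower (22.7%, near the background), with a median of 0.40. Angptl6, an angiopoietin-like factor, was at 3.16, 3.48 and 1.90 CPM in control and 59.9, 52.2 and 55.7 CPM with siRNA 644 (4.30, SE 0.177, adjusted p = 1.26e-06). Manf, an ER stress-induced neurotrophic factor, rose by 2.31 (SE 0.0834), the placental growth factor gene Pgf by 2.13 (SE 0.297) and Gdf15, a stress cytokine, by 1.69 (SE 0.131). Of 38 ion channel and purinergic receptor genes, 18 were higher (47.4%) and 2 lower (5.26%), with a median of 0.41, and those lower were 5 without siRNA 644 replicate 2 and 1 without any other library except control replicate 2. The proton channel gene Hvcn1 rose by 0.99 (SE 0.0985). P2ry12, a purinergic receptor of resting microglia, was at 1.65, 1.19 and 1.61 CPM in control and 0.425, 1.10 and 0.576 CPM with siRNA 644 (-1.06, SE 0.335, edgeR adjusted p = 0.0292). The call was lost without control replicate 1 or 3 or siRNA 644 replicate 1 or 3 (adjusted p = 0.0803 to 0.105). With all 9 libraries (0.11) and with a replicate block (0.08) it was lost too. Of 16 tetraspanins, which organise membrane domains, 9 were higher (56.2%) and 2 lower (12.5%), with Tspan10 at 1.88 (SE 0.164) and the leukocyte member Cd37 at 1.44 (SE 0.120). Among 206 solute carriers 90 were higher (43.7%) and 31 lower (15%), with a median of 0.22, and those lower were 19 without control replicate 1 or siRNA 644 replicate 3.

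The lists of adhesion and matrix genes were near the background of 24.1% higher and 23.6% lower, while the cytoskeletal lists held more genes called lower than higher. Of 20 integrins and selectin ligands, 5 were higher (25%) and 6 lower (30%). The lymphocyte homing subunit Itgb7 rose from 33.4, 43.9 and 34.6 CPM to 136, 108 and 126 CPM (1.73, SE 0.126), while Itgav, which pairs with several beta chains, was at -1.02 (SE 0.173) and Itgb2, the common leukocyte beta chain, at -0.80 (SE 0.0933). Of 19 matrix genes, 4 were higher and 4 lower (21.1% each). P3h1, a collagen-modifying enzyme of the ER, rose by 1.05 (SE 0.0842), and Serpinh1, the collagen chaperone, by 1.48 (SE 0.349). Of 33 actin-binding genes, 4 were higher (12.1%) and 13 lower (39.4%), with a median of -0.19, with the tropomyosin gene Tpm4 at -0.68 (SE 0.0633). With offsets for GC content and length 20 of them were lower, while 7 were with all 9 libraries and 8 without siRNA 644 replicate 3. Without control replicate 1, 2 were higher. Of 31 tested kinesins, the motors of microtubules, 4 were higher (12.9%) and 18 lower (58.1%), with a median of -0.47. The kinesins include mitotic motors, and Kif11, Kif20a, Kif23 and Kif2c also belong to the list of G2 and mitosis genes below. The kinesins that fell at least 2-fold included Kif18a (-1.45), Kif2c (-1.24), Kif11 (-1.21) and Kif23 (-1.19). These counts are therefore not separate from the fall of mitotic genes. Kif5a, the neuronal conventional kinesin, had 4, 2 and 0 control counts and 35, 29 and 29 with siRNA 644 (3.95, SE 0.483, adjusted p = 0.000329, and 4.86 without control replicate 1).

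Interferon and mitotic genes fell almost without exception. Of 30 tested genes of each list, 29 were called lower and 0 higher, with medians of -1.16 for interferon-stimulated genes and -1.17 for genes of G2 and mitosis. Oasl2, an antiviral protein of the OAS family, was at 169, 165 and 181 CPM in control and 46.2, 42.2 and 54.4 CPM with siRNA 644 (-1.85, SE 0.0991). Rsad2, the antiviral enzyme viperin, was at -1.80 (SE 0.0945) and the guanylate-binding protein gene Gbp3 at -2.36 (SE 0.176). Ifi44 was at -3.0 (SE 0.343), and at -3.70 without siRNA 644 replicate 3. Among mitotic genes the kinase gene Bub1 was at 114, 98.5 and 113 CPM in control and 38.6, 42.8 and 36.7 CPM with siRNA 644 (-1.46, SE 0.0891), and Ect2, which sets the plane of cell division, was at -1.72 (SE 0.229). In bulk RNA, fewer dividing cells and less RNA of these genes per cell cannot be told apart.

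**Figure D5:**
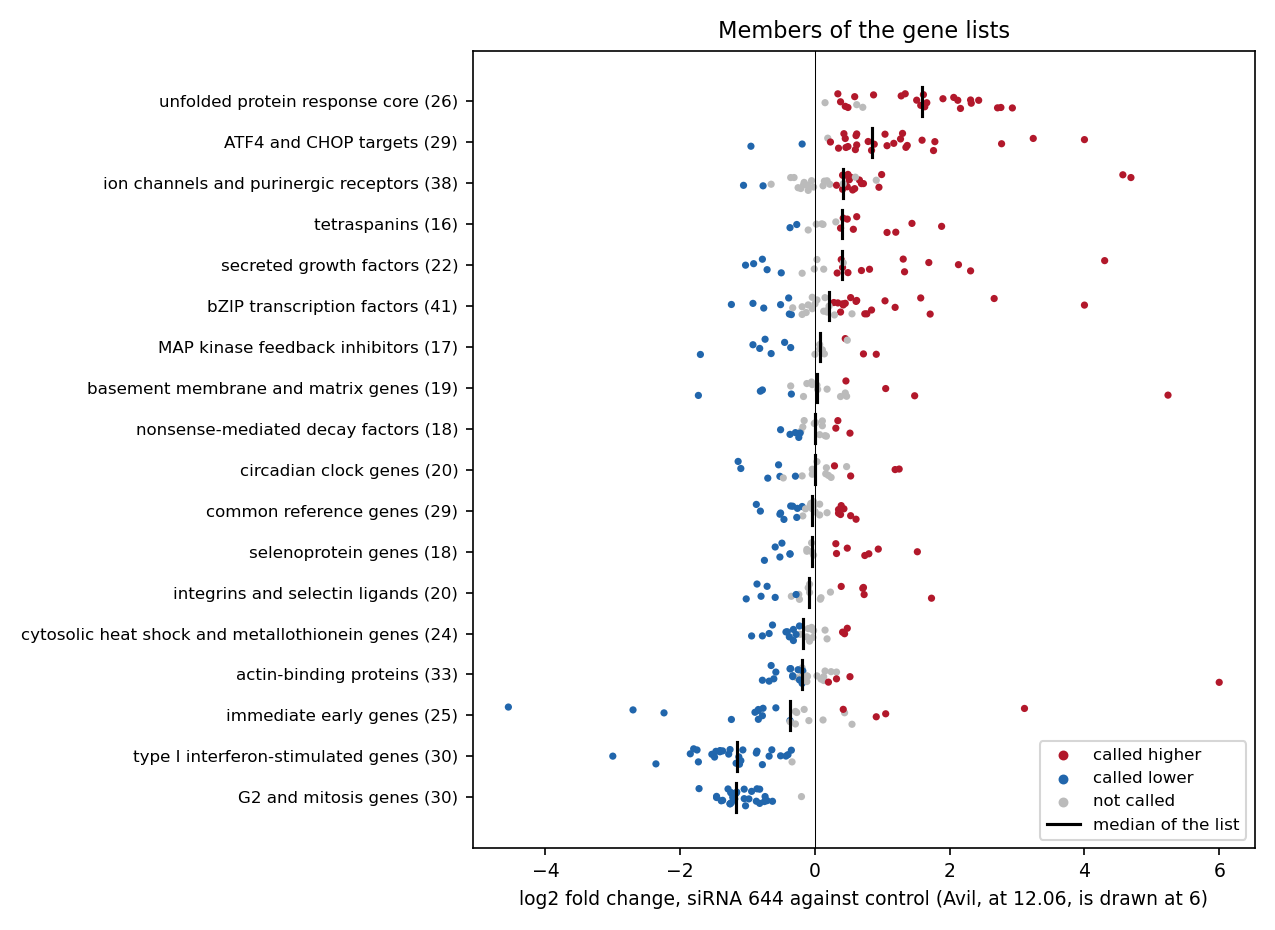
Log2 fold change of each tested member (points) of 18 gene lists, with the number of members tested in parentheses, red for calls higher, blue for calls lower, grey for genes not called, and a black bar at the median of the list. Medians run from -1.17 for genes of G2 and mitosis to 1.59 for the unfolded protein response core, and Avil is drawn at the right edge.

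Genes often used as constant references moved in both directions. Of 29 such genes, 7 were called higher (24.1%, against 24.1% of all genes) and 10 lower (34.5%, against 23.6%), and their median was -0.04. With all 9 libraries 1 was higher and 4 lower. Without control replicate 1 the counts were 3 and 6, and without control replicate 3 or siRNA 644 replicate 3, 4 were higher. Pgk1, a glycolytic enzyme, was at 1280, 1330 and 1260 CPM in control and 729, 681 and 708 CPM with siRNA 644 (-0.87, SE 0.0676, adjusted p = 3.34e-05). The alpha tubulin gene Tuba1a was at -0.81 (SE 0.0992). Rpl13a and Rps18 were called higher by 0.61 (SE 0.142) and 0.53 (SE 0.121), but not with all 9 libraries (adjusted p = 0.0744 and 0.0987). Of 80 cytosolic ribosomal protein genes, 62 were called higher and 1 lower (median 0.43), but with all 9 libraries only 3 were higher. Without 1 library the count of higher members was 23 without control replicate 1, 29 without control replicate 3, 37 without siRNA 644 replicate 1 and 33 without siRNA 644 replicate 3. Of 50 proteasome subunits and factors, 3 were higher and 23 lower (median -0.22), and the lower ones were 14 with all 9 libraries and 15 without siRNA 644 replicate 3. Those higher were 0 without control replicate 1, control replicate 3 or siRNA 644 replicate 3, 1 without siRNA 644 replicate 1 and 7 without siRNA 644 replicate 2. Circadian clock genes were near the background of 24.1% and 23.6%, with 4 of 20 higher (20%) and 6 lower (30%). Among them were Per2 at 1.25 (SE 0.206), Ciart at 1.19 (SE 0.0925) and Per1 at -1.14 (SE 0.0681). Without control replicate 3 or siRNA 644 replicate 1, 3 of the clock genes were lower. Factors of nonsense-mediated decay had 3 of 18 higher (16.7%) and 5 lower (27.8%), with a median of 0.00. With all 9 libraries 2 of these factors were lower, as they were without control replicate 1 or siRNA 644 replicate 3, and without control replicate 3 or siRNA 644 replicate 1 there were 3.

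Promoter letters were compared between the groups of genes as a description. RefSeq promoters, here 250 bases before to 50 bases after the start, were found for 9393 of the 11626 genes tested (80.8%). The ER stress element stood, on either strand, in 2.06% of promoters of genes that rose at least 2-fold, in 0% of those that fell at least 2-fold, in 0.0321% of those not called and in 0.119% of all 32851 promoters. The 10 risers that hold it include Hspa5, Creld2, Calr, Hsp90b1, Pdia6, Dnajc3 and Syvn1. The element TGATGNAA stood in 6.19% of promoters of the risers, 3.0% of the fallers, 1.81% of those not called and 3.97% of all. The interferon element stood in 3.09%, 10.7%, 2.49% and 3.44%. TTTGAA, the core of the cell cycle genes homology region, stood in 12.8%, 25%, 11.4% and 17.9%, and CCAAT, which is also part of the ER stress element, in 37.9%, 47.3%, 38.0% and 37.4%. For TGACGTGG the shares were 0.825%, 0.667%, 0.866% and 0.676%, and for TGACGTCA 1.86%, 3.0%, 3.14% and 1.79%. For an NF-kB element, GGG and TTTCC with 2 bases between, they were 2.27%, 1.67%, 1.65% and 1.63%. In promoters of genes not tested, the ER stress element stood in 0.12%, TGATGNAA in 4.89%, the interferon element in 3.61% and TTTGAA in 21.1%. There CCAAT, TGACGTGG, TGACGTCA and the NF-kB element stood in 36.9%, 0.585%, 1.03% and 1.57%.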

How the data were processed

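The authors deposited estimated counts, and 37.4% of those above 0 departed from a whole number by over 1e-09. FPKM, log2 fold changes and q-values by the authors stood in the same deposited table. The tools DESeq2 1.34.0 and Bowtie2 2.4.5 and the build mm39 are listed in the submitters' processing notes. No source used here gives the counter, annotation or strand setting, so overlapping genes and near-identical copies are uncertain. Of 16347 genes matched to RefSeq of GRCm38.p6, 12052 (73.7%) had the table's positions, so the build of those positions is open. A further 9 per-sample columns (TPM) were not used.

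Counts were rounded. Genes were kept by filterByExpr (minimum count 10, minimum total 15), scaled by TMM and tested over the 6 libraries with the quasi-likelihood F-test of edgeR 4.0.16 (R 4.3.3), with Benjamini-Hochberg adjustment over all 11626 genes and a threshold of 0.05. The common biological coefficient of variation was 9.61%. Depth was 19492208 to 20224686 counts a library. Intervals (exact, 95%) and the floor of 3 counts cover counting error only. In simulated data 200 of 11626 genes were changed. Of 81, 54 and 64 tested genes changed 1.5-, 2- and 4-fold, 67.9%, 88.9% and 96.9% were recovered. Of 11332 unchanged genes 16 were called, false calls that stand beside at most 200 true ones. The counts were drawn independently, without effects of GC content, transcript length or library, and far fewer genes changed than were called here. These rates therefore cannot be carried over to the real calls.

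Named genes were Nus1, the 4 largest non-overlapping calls per direction in each of 5 FPKM classes, the 8 largest changes of share per direction and up to 4 called members of each of 19 lists. Members and lists were chosen with earlier results of these data known. Not every gene that met the rule is described. Alternatives were DESeq2 1.42.0, other scalings and filters, limma 3.58.1 on log2(FPKM + 1) and log2(FPKM + 0.1), GC and length offsets, a replicate block, all 9 libraries, a threshold of 0.01 and leaving out each library.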

Additional observations from a re-analysis of the deposited data

How the results depend on the processing

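The number of calls moved with the samples in the fit and with the threshold. With all 9 libraries 1759 genes were lower. At an adjusted p under 0.01, 1841 were higher and 1683 lower. On log2(FPKM + 1), limma called 206 genes at least 2-fold higher and 183 at least 2-fold lower, since the pseudocount shrinks the fold of low genes. Without 1 library, 2031 to 3167 genes were higher and 1903 to 3249 lower, and at least 2-fold changes ranged from 465 to 550 higher and from 303 to 450 lower. The control and siRNA 644 samples share only a replicate number. Deviations of same-numbered samples correlated at -0.113, -0.479 and -0.100 across genes, and a replicate block gave 1855 genes higher and 1700 lower. With offsets for GC content and length the block gave 2481 and 2946. Of 172 named genes tested, 171 could be compared over 18 settings, 38 changed their side of the threshold in at least 1, and 0 reversed. Calls were lost for 20 of them with all 9 libraries, for 14 at the threshold of 0.01, and for 11 each with the block and without control replicate 1. The cause was not tested. Depth limits the folds of genes with few control reads.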

Other observations

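Avil, Kif5a and Ddit3, which each rose at least 8-fold, lie in 1 stretch of chromosome 10 from 126978717 to 127311786 in the table's coordinates. The stretch, chosen after its values were seen, holds 21 genes, of which 19 were tested. Of these, 15 were called higher (78.9%, against 24.1% of all genes) and 1 lower, with a median log2 fold change of 0.75. The 15 include Avil, Kif5a and Ddit3, whose rises set the stretch, so this share is no test against the background. Eef1akmt3, a lysine methyltransferase of a translation elongation factor, was at 2.08, Os9, a lectin of ER-associated degradation, at 0.83 and Dctn2, a dynactin subunit, at 0.75. Mars1, the methionyl-tRNA synthetase gene, was at -0.27. That call was lost without control replicate 1, control replicate 2, siRNA 644 replicate 2 or siRNA 644 replicate 3 (edgeR adjusted p = 0.115, 0.0917, 0.0589 and 0.0936). It was also lost with all 9 libraries (0.184) and with a replicate block (0.105). Over all 48 genes that rose at least 8-fold, 68 of 91 neighbouring genes were tested, 26 were higher (38.2%, against 24.1% of all genes) and 7 lower, with a median of 0.21, and 16 pairs overlapped. Strand is not known for these counts, so reads of overlapping genes cannot be told apart.

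Families of detoxifying enzymes differed. Of 10 tested glutathione S-transferase genes, 7 were higher and 0 lower (median 0.52), and of 12 cytochrome P450 genes, 9 were higher and 1 lower (median 0.70). Of 8 aldo-keto reductases, 2 were higher and 1 lower (median -0.05), and of 12 aldehyde dehydrogenases, 3 were higher and 1 lower (median 0.01), so that 25% of each were higher. With offsets for GC content and length, 4 aldo-keto reductases and 5 aldehyde dehydrogenases were lower, and the median of the latter was -0.05. These families were chosen with earlier results known, and the background was 24.1% higher and 23.6% lower.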
